A study of Mus musculus with 27 samples.

Results

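Foxa1 and Foxa2 are forkhead transcription factors that open closed chromatin and act in endoderm-derived organs, among them liver, pancreas, lung and gut. In the intestine they are known for their part in the secretory lineages, that is the mucus-making goblet cells and the hormone-making enteroendocrine cells. The proximal colon, the stretch next to the caecum, absorbs water and salt and lacks the villi of the small intestine, where most digestion and nutrient uptake take place. Poly(A) RNA of proximal colon was compared here between mice without and mice with epithelial deletion of both genes, over the 14 proximal libraries (7 control and 7 deficient) of the 27 libraries of the study, chosen by the tissue and genotype given in their labels. Each library came from a different mouse of mixed background.

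The 7 deficient mice were Villin1-Cre; Foxa1lox/lox; Foxa2lox/lox, with Villin1-Cre driving recombination in the gut epithelium. They were aged 9, 9, 10, 10.5, 13, 11 and 12 months (replicates 1 to 7), and replicates 5 and 7 were labelled female and the others male. Of the 7 control mice, all labelled male, replicates 2, 3, 4, 5 and 7 were Foxa1lox/lox; Foxa2lox/lox without Cre and were 9, 10.5, 11, 18 and 18 months old. Control replicate 1, aged 10.5 months, was Villin1-Cre; Foxa1lox/wt; Foxa2lox/wt, with 1 floxed allele of each gene. Control replicate 6, aged 18 months, was Villin1-Cre; Foxa1lox/lox; Foxa2lox/wt, so Cre was combined with 2 floxed Foxa1 alleles and 1 wild-type Foxa2 allele. RNA was extracted from 1 cm pieces of whole colon wall, which held muscle, nerve, immune and stromal cells beside the epithelium. In such tissue, fewer cells of a type and less RNA per cell cannot be told apart.

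Proximal libraries held 35961132 to 54196293 estimated counts. The colonic epithelial regulator genes Cdx2 (352 to 451 CPM over the 14 libraries) and Hnf4a (772 to 1367 CPM) were high, and Hoxb13, a gene of the distal hindgut, was at most 0.109 CPM, where CPM is counts per 1000000 of the scaled library size. Of 21 pancreas and stomach genes, 18 were at or below 0.5 CPM in each library, Tff2 and Muc6 reached 0.864 and 1.59 CPM, and Cela1, an elastase gene, was at 28.5 to 54.4 CPM. The Y-linked gene Ddx3y was at 0.0236 CPM in deficient replicate 3, which is labelled male, at 0.327 and 0.0668 CPM in the replicates labelled female (5 and 7), and at 52.8 to 69.3 CPM in the other 11 libraries. Defensin genes of small-intestinal Paneth cells stood out in deficient replicate 3, with Defa24 at 23.5 CPM, Defa30 at 17.6 CPM and Defa17 at 6.98 CPM. Defa24 was at 2.48 and 1.14 CPM in deficient replicates 5 and 7 and at most 0.0543 CPM in the other 11 libraries. Fgf15, a hormone gene of ileal enterocytes, was likewise highest in deficient replicates 3, 5 and 7, at 4.15, 1.61 and 0.935 CPM, and at most 0.434 CPM elsewhere. Defa30 was at most 0.0456 CPM outside replicate 3. Each count below that leads a paragraph was therefore also taken without deficient replicate 3, and over the mice labelled male without it (7 control and 4 deficient), which leaves out all 3 of these libraries.

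The targeted genes were read first. Foxa1 lies on the minus strand of GRCm38 at chr12:57540628-57546916. It was at 55.3 to 75.02 CPM in 6 control libraries, at 14.97 CPM in control replicate 6 and at 11.0 to 15.7 CPM in deficient libraries, with a median of 12.3 CPM. Its log2 fold change was -2.24 (standard error, SE, 0.25, adjusted p = 2.03e-05, edgeR quasi-likelihood test with Benjamini-Hochberg adjustment over all genes tested). The groups overlapped in Foxa1 because of control replicate 6. Foxa2 (chr2:148042877-148046969, minus strand, GRCm38) ranged from 6.57 to 16.9 CPM in controls (median 7.88) and from 1.34 to 1.92 CPM in deficient mice (median 1.49). It fell by 2.67 on the log2 scale (SE 0.20, adjusted p = 5.07e-07) with no overlap, and control replicate 6 held the highest level. Foxa3, the third member of the family, fell by 0.50 on the log2 scale (SE 0.12, adjusted p = 0.0122), with controls at 35.9 to 49.4 CPM and deficient mice at 21.3 to 38.1 CPM.

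Across the transcriptome, 16787 genes were tested and 1962 had an adjusted p under 0.05, here termed called (11.7%). Of these, 927 were higher in deficient mice (5.52% of genes tested) and 1035 lower (6.17%), and the median log2 fold change of all genes was 0.01. A change of at least 2-fold was called for 3.47% of genes, and the groups of 7 did not overlap for 4.67%. Without control replicate 6, 1120 genes were called higher and 1135 lower. Over male-labelled mice without deficient replicate 3, 693 were higher and 726 lower.

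**Figure D1:**
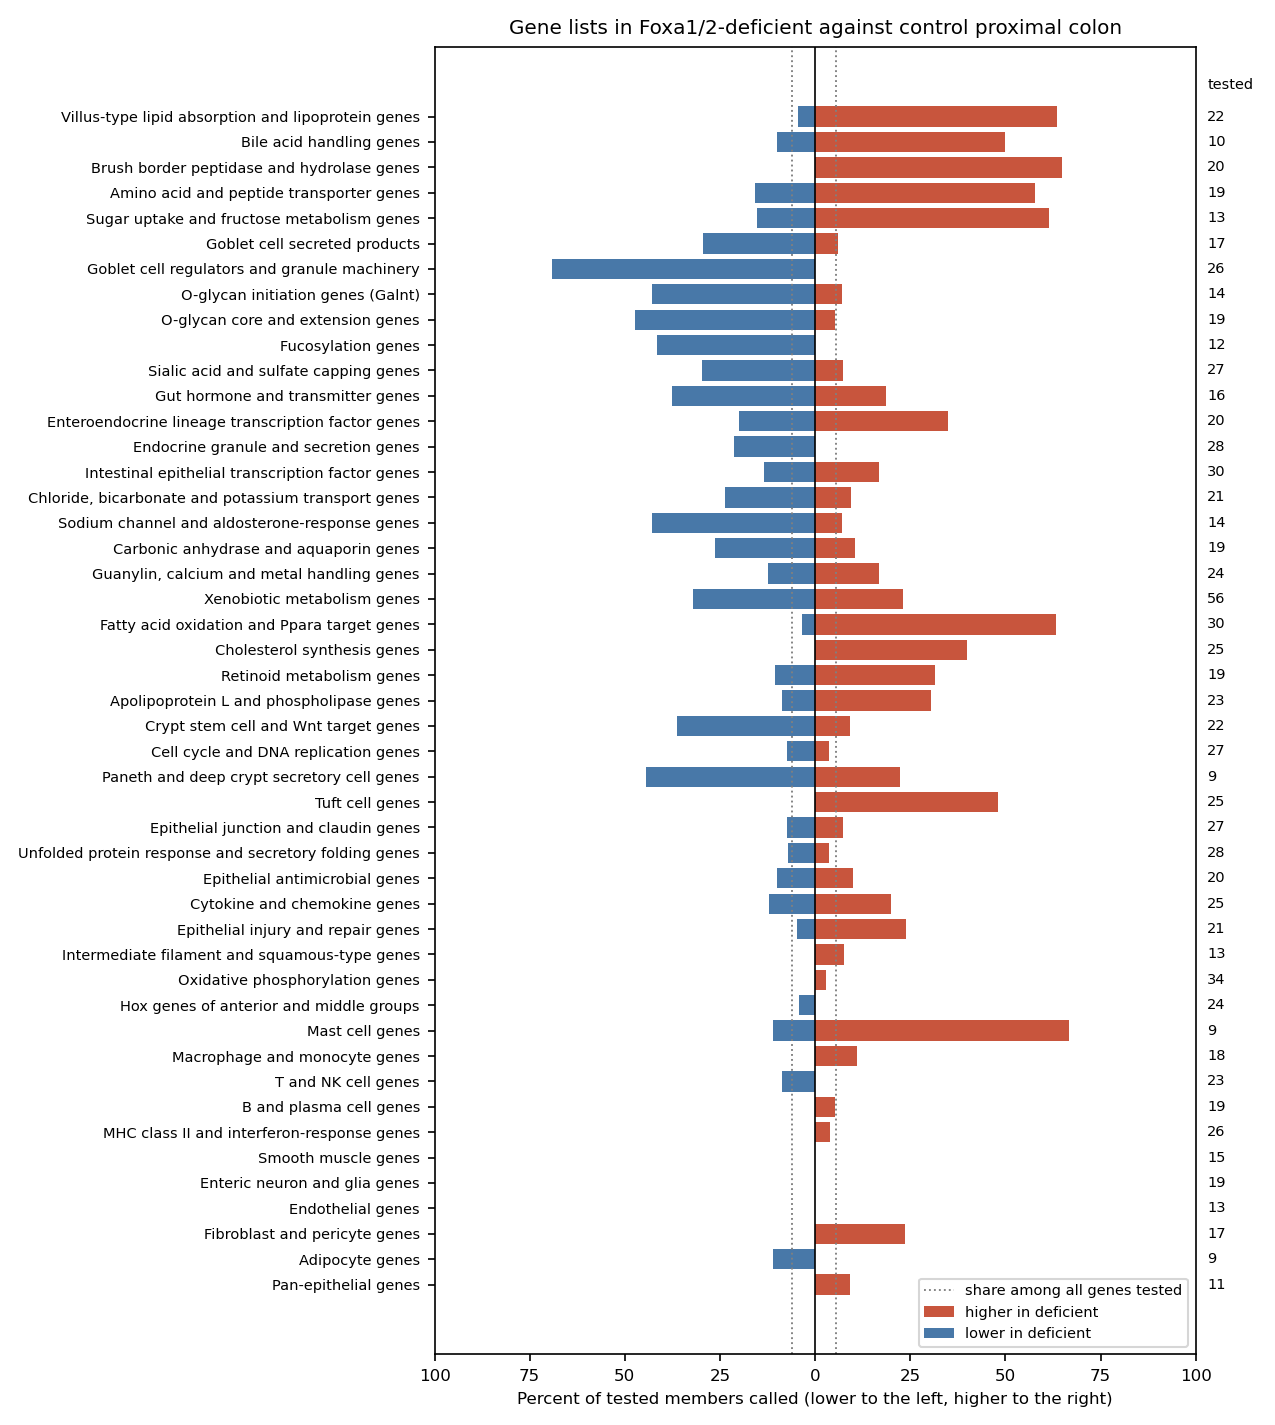
Share of tested members called higher (red, to the right) or lower (blue, to the left) in deficient proximal colon, in percent, for each gene list with at least 9 tested members, whose number stands at the right. Dotted lines mark 5.52% higher and 6.17% lower over all genes tested. Absorptive and fatty acid oxidation lists reach to the right, goblet cell and glycan lists to the left, and smooth muscle, neuron and endothelial lists have no bar.

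Upstream sequences are shown for 4 genes to set the forkhead motif beside the changes in expression. Forkhead factors bind the core letters TGTTTAC, which read GTAAACA on the other strand. In the RefSeq promoter table (GRCm38.p6), the 250 bases before the start were searched on both strands, taking 1 entry per gene as positive where any of its starts held the motif, and 12326 tested genes had an entry. The motif was found in 2.99% of those genes, in 2.42% of those called higher, in 4.21% of those called lower, in 2.21% of the 226 called higher by at least 2-fold and in 6.63% of the 196 called lower by at least 2-fold. It was in 3.17% of the 32851 promoters of the whole table. In each of the following, capitals mark the motif, read 5′ to 3′ on the gene's strand. Among the genes named here, those of 1 chromosome were left out of this count, and 7 of the rest held the motif. Of these 7, 3 were called higher (Cck, Il1rl1 and Prdm1), 2 lower (Foxa1 and Pcsk1) and 2 neither (Cdx2 and Rbp4). Those printed are Foxa1 and Pcsk1, the prohormone convertase gene of endocrine cells, Il1rl1, the interleukin-33 receptor gene, and Cdx2, which specifies intestinal epithelium.
Foxa1 (chr12:57546112-57546361, minus strand): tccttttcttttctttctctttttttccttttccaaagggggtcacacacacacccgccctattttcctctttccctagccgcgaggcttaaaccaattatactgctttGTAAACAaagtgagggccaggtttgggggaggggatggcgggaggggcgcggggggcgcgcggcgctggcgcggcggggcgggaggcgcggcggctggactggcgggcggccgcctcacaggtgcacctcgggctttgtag
Pcsk1 (chr13:75089607-75089856, plus strand): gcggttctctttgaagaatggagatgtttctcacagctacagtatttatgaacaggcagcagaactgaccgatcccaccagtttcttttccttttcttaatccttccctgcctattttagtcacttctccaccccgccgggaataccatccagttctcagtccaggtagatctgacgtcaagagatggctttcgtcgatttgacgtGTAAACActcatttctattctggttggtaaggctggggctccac
Il1rl1 (chr1:40439379-40439628, plus strand): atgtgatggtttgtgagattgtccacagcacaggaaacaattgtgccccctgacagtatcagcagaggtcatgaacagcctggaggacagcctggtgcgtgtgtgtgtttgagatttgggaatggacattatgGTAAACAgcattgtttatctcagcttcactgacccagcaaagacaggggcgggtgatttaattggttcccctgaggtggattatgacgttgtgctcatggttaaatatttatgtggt
Cdx2 (chr5:147307250-147307499, minus strand): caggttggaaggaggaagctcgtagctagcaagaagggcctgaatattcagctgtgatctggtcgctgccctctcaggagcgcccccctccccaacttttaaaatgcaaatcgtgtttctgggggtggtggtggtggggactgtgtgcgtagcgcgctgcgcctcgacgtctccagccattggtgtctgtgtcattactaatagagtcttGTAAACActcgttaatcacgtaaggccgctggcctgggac
The motif began 141 bases before the start in Foxa1, 44 bases before it in Pcsk1, 117 bases before it in Il1rl1 and 40 bases before it in Cdx2. The stretches of Foxa1 and Il1rl1 lie inside the GENCODE spans of these genes, so the RefSeq start they precede is an internal one, and other transcripts begin further upstream. These are matches of letters, and binding was not measured.

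Genes of the villus-type brush border, the microvillus membrane where small-intestinal enterocytes finish digestion, rose in deficient proximal colon. Of 20 brush border peptidase and hydrolase genes, 13 were called higher and 0 lower, with a median log2 fold change of 1.23. Anpep, which encodes aminopeptidase N, ranged from 6.38 to 18.1 CPM in controls (median 8.86) and from 124 to 711 CPM in deficient mice (median 421), a log2 fold change of 5.38 (SE 0.40, adjusted p = 4.44e-07). The lowest deficient library stood above the highest control. Enpep, which encodes aminopeptidase A, was at 17.2 to 98.4 CPM in controls (median 24.0) and at 251 to 452 CPM in deficient mice (median 336), a log2 fold change of 3.29 (SE 0.37). Treh, the trehalose-splitting enzyme gene, and Dpp4, encoding dipeptidyl peptidase 4, rose by 3.85 (SE 0.40) and 1.85 (SE 0.21) on the log2 scale. For these 4 genes the groups did not overlap, and in Anpep, Enpep and Dpp4 the highest control was replicate 6. Summed expression of 11 pan-epithelial genes overlapped between groups (14659 to 22424 CPM in controls and 16278 to 23204 CPM in deficient mice), with 1 member called (Phgr1, log2 fold change 0.46, adjusted p = 0.0432, and 0.0685 without deficient replicate 3). Without deficient replicate 3, 12 brush border genes were called higher, and over male-labelled mice without it 11 were.

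Amino acid and peptide uptake genes went both ways, with more called higher than lower. Of 19 transporter genes tested, 11 were called higher and 3 lower, and 11 had a positive log2 fold change (median 0.73). Over male-labelled mice without deficient replicate 3, 9 were higher and 1 lower, with a median of 0.37. Slc6a19, the apical carrier for neutral amino acids, was at 1.28 to 5.10 CPM in controls (median 1.61) and 10.5 to 91.1 CPM in deficient mice (median 50.4), a log2 fold change of 4.48 (SE 0.46, adjusted p = 8.29e-06). Slc15a1, the dipeptide carrier PepT1, went from 1.38 to 4.24 CPM (median 1.98) to 10.1 to 63.3 CPM (median 23.4), a log2 fold change of 3.73 (SE 0.40, adjusted p = 1.12e-05). Slc6a20a, the carrier of proline and related imino acids, rose by 2.95 on the log2 scale (SE 0.29). The groups did not overlap in any of these 3 genes, and control replicate 6 was the highest control in each. The 3 members that fell were Slc36a1 (log2 fold change -0.42), Slc1a5 (-0.51) and Slc43a1 (-0.49).

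**Figure D2:**
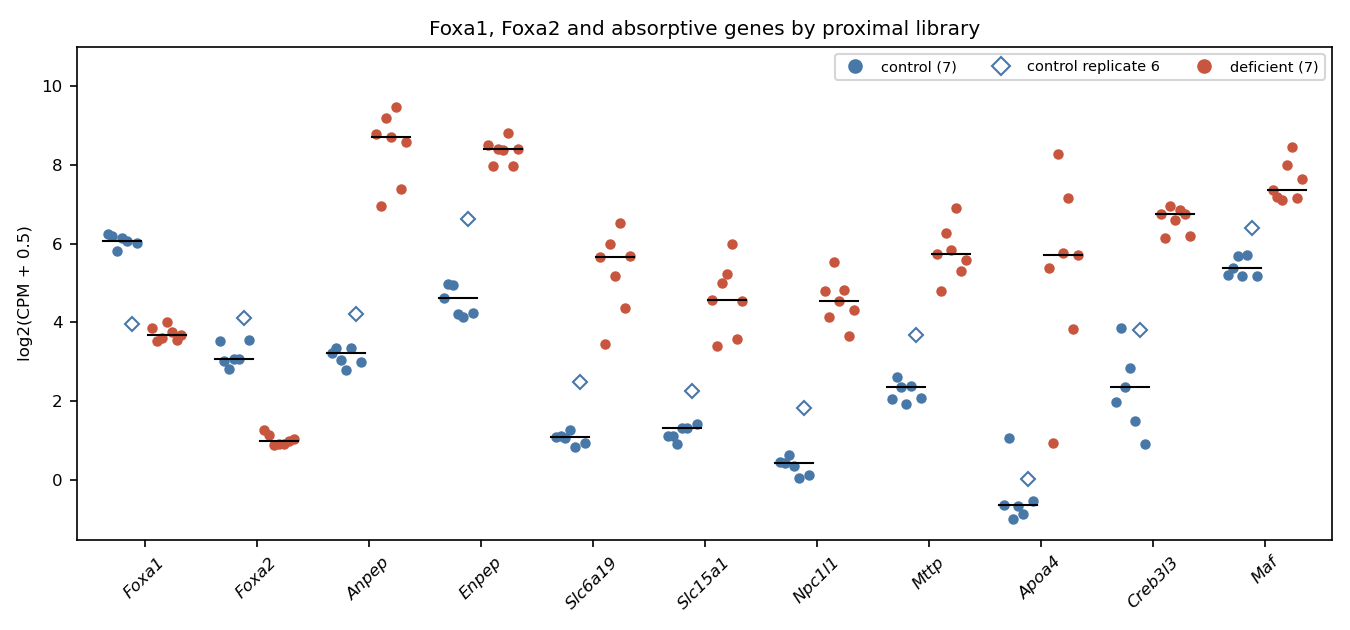
Expression as log2(CPM + 0.5) of Foxa1, Foxa2 and 9 absorptive genes in 7 control (blue) and 7 deficient (red) proximal libraries, with a black line at the median of each group and control replicate 6 as an open diamond. Control replicate 6 lies with the deficient libraries in Foxa1 and above the other controls in Anpep, Enpep, Slc6a19, Slc15a1, Npc1l1, Mttp and Maf.

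Genes of lipid uptake and lipoprotein assembly were among the increases. Of 22 such genes, 14 were called higher and 1 lower (median log2 fold change 1.14), and 14 were higher again without deficient replicate 3. Over male-labelled mice without it, 12 were higher, with a median of 0.75. Npc1l1, the cholesterol uptake protein gene, was at 0.525 to 3.07 CPM in controls (median 0.855) and 12.0 to 45.8 CPM in deficient mice (median 22.8), a log2 fold change of 4.49 (SE 0.40, adjusted p = 2.03e-06). Mttp, which loads lipid onto apolipoprotein B, ranged from 3.33 to 12.3 CPM (median 4.64) and from 27.4 to 119 CPM (median 52.4), a log2 fold change of 3.46 (SE 0.36). These groups did not overlap. Tm6sf2 and Dgat1, of lipoprotein lipidation and triglyceride synthesis, rose by 1.97 (SE 0.21) and 0.75 (SE 0.09) on the log2 scale.

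The apolipoprotein genes Apoa1 and Apoa4, whose products coat chylomicrons, spread widely among deficient libraries. Apoa4 was at 0 to 1.57 CPM in controls (median 0.136) and at 1.40 to 313 CPM in deficient mice (median 52.3), a log2 fold change of 7.83 (SE 1.11, adjusted p = 1.5e-04). The groups overlapped at deficient replicate 2, the lowest deficient library, and control replicate 2, the highest control. Apoa1 was at 0.0509 to 1.15 CPM in controls and 0.375 to 266 CPM in deficient mice, with a log2 fold change of 7.18 (SE 1.14, adjusted p = 4.36e-04). Both were highest in deficient replicate 3, the library with Paneth defensin RNA, and their log2 fold changes without it were 7.04 and 6.29. With limma-voom neither passed (adjusted p = 0.0565 and 0.136). Fabp1, the liver-type fatty acid-binding protein gene, rose by 4.51 on the log2 scale (SE 0.73), from 0.295 to 0.854 CPM to 1.48 to 51.1 CPM. The lower member was Clps, the colipase gene, at 0.0267 to 4.75 CPM in controls (median 3.50) and 0 to 0.778 CPM in deficient mice. Its log2 fold change was -4.48 (SE 0.91, adjusted p = 0.00330), and the lowest control was replicate 6. Without deficient replicate 3, its highest deficient library, the log2 fold change of Clps was -6.42.

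Some genes that rose were spread widely among deficient libraries, with high levels in those without appreciable Ddx3y RNA (replicates 3, 5 and 7). Pla2g4c, a cytosolic phospholipase gene, was at 120, 446 and 139 CPM in replicates 3, 5 and 7 and at 3.67, 5.76, 25.3 and 4.97 CPM in replicates 1, 2, 4 and 6, against 1.32 to 2.24 CPM in controls. Ang4, an antimicrobial ribonuclease gene, was at 74.9, 920 and 417 CPM in replicates 3, 5 and 7 and at 32.2, 25.7, 184 and 45.8 CPM in replicates 1, 2, 4 and 6, so replicate 4 stood above replicate 3. Olfm4, which marks stem cells of the small intestine, was at 28.0, 9.06 and 7.37 CPM in replicates 3, 5 and 7 and at 0.138 to 1.79 CPM in the other deficient libraries. Pla2g4c rose by 5.91 on the log2 scale over all mice (SE 1.04) and by 2.48 over male-labelled mice without replicate 3 (adjusted p = 0.00327). The same values were 3.86 and 2.10 for Ang4, and 4.62 and 1.67 for Olfm4, whose call was lost there (adjusted p = 0.135). With limma-voom, Pla2g4c did not pass either (adjusted p = 0.0970). Defa24 and Fgf15 RNA was also highest in these 3 libraries (values above), and its part in these levels was not tested. The fit over male-labelled mice gives the change within that sex, while among female-labelled mice, with no control, sex and genotype cannot be told apart. Reads of Ang4 and of other multigene families (Ugt1a, Gstm, Cyp2c, Cyp2d, Mcpt, Defa) may be divided among near-identical copies, so their values are uncertain.

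Of 10 bile acid handling genes, 5 were called higher and 1 lower (median log2 fold change 0.70), and 3 were higher over male-labelled mice without deficient replicate 3. Fabp6, the bile acid-binding protein gene of ileal enterocytes, was at 1.96 to 19.3 CPM in controls (median 3.03) and 32.1 to 604 CPM in deficient mice (median 108), a log2 fold change of 5.02 (SE 0.75, adjusted p = 2.52e-04). Slc51a, a subunit of the basolateral bile acid exporter, rose by 1.31 (SE 0.20), and Gpbar1, the membrane bile acid receptor gene, by 1.79 (SE 0.21) from at most 0.331 CPM. Slc10a2, the apical bile acid carrier gene, was not called, with 139 to 526 CPM in controls and 235 to 430 CPM in deficient mice (log2 fold change 0.30, SE 0.25, adjusted p = 0.548). It passed without control replicate 6, its highest control (log2 fold change 0.58, adjusted p = 0.0492). The member that fell was Slco2a1, a prostaglandin carrier gene, by 0.96 on the log2 scale (SE 0.14).

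Of 13 sugar uptake and fructose metabolism genes, 8 were called higher and 2 lower (median 0.42), and 3 were higher over male-labelled mice without deficient replicate 3. Tkfc, the triokinase gene of fructose breakdown, was at 16.7 to 28.3 CPM in controls (median 20.7) and 36.7 to 51.2 CPM in deficient mice (median 40.0), a log2 fold change of 0.97 (SE 0.11, adjusted p = 2.07e-05). The groups did not overlap. The members that fell were Pck1, of glucose synthesis, at 83.7 to 157 CPM in controls and 41.1 to 63.3 CPM in deficient mice (log2 fold change -1.22, SE 0.13), and its mitochondrial form Pck2 (-0.40).

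Fatty acid oxidation genes, many of them targets of the lipid-sensing receptor Ppara, were mostly called higher. Of 30 tested, 19 were called higher and 1 lower (median log2 fold change 0.40), with 14 called higher over male-labelled mice without deficient replicate 3, and 12 over mice of 9 to 13 months. Pdk4, which turns fuel use from glucose to fat, was at 46.0 to 116 CPM in controls (median 60.4) and 221 to 411 CPM in deficient mice (median 306), a log2 fold change of 2.20 (SE 0.22, adjusted p = 5.98e-06). Acot12, a peroxisome-linked acetyl-CoA thioesterase gene, went from at most 0.454 CPM to 2.33 to 6.77 CPM (log2 fold change 4.28, SE 0.37). Acaa1b and Vnn1 rose by 2.70 (SE 0.32) and 1.97 (SE 0.22). None of these 4 genes overlapped between groups. Acads, of short-chain fatty acid oxidation, fell by 0.36 (SE 0.07), from 240 to 321 CPM to 210 to 235 CPM. Among 34 oxidative phosphorylation genes 1 was called (Ndufa4, higher by 0.75).

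Of 25 cholesterol synthesis genes, 10 were called higher and 0 lower (median 0.35), but 3 were higher without deficient replicate 3 and 2 with age as a covariate. Sqle, the squalene epoxidase gene, was at 46.1 to 112 CPM in controls and 116 to 169 CPM in deficient mice (log2 fold change 0.87, SE 0.16, adjusted p = 0.00149). Of 19 retinoid genes, 6 were called higher and 2 lower. The counts were 2 and 2 over male-labelled mice without deficient replicate 3, and 3 and 1 with age as a covariate. Rbp2, the retinol-binding protein gene of enterocytes, went from 4.29 to 15.5 CPM to 22.1 to 100 CPM (log2 fold change 2.23, SE 0.36). The lower members were Adh1, which fell by 0.68, and Stra6, a retinol transporter gene, at -1.61 (adjusted p = 0.0301). The Stra6 call was lost with limma-voom (adjusted p = 0.0918), with age as a covariate (0.219), over male-labelled mice without deficient replicate 3 (0.154) and without any of 6 libraries (0.0597 to 0.0775), deficient replicate 3 among them.

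Among 30 intestinal transcription factor genes, 5 were called higher and 4 lower, with a median of 0.00. Creb3l3, a membrane-bound factor for lipid genes of liver and small intestine, was at 1.39 to 13.95 CPM in controls (median 4.66) and 70.4 to 124 CPM in deficient mice (median 107), a log2 fold change of 3.91 (SE 0.44, adjusted p = 1.83e-05). Maf, a factor of villus enterocytes, was at 35.5 to 83.7 CPM in controls (median 41.1) and 136 to 351 CPM in deficient mice (median 165), a log2 fold change of 2.06 (SE 0.25). The groups did not overlap in either gene. Nr1h3 (0.74), Prdm1 (0.63) and Gata4 (1.10, adjusted p = 0.0219) were also higher. Gata4, a factor of the proximal small intestine, stayed at or below 1.42 CPM. Its call was lost with limma-voom (adjusted p = 0.0533), with the offset for transcript length (log2 fold change 0.59, adjusted p = 0.309), over male-labelled mice without deficient replicate 3 (0.176) and without control replicate 1 or deficient replicate 4 or 5 (0.0508 to 0.0564). Cdx1, the partner of Cdx2 in intestinal identity, fell by 0.32 (SE 0.07), beside Ehf (-0.39), Sox9 (-0.46) and Foxa3. The values were not past the threshold for Cdx2 (log2 fold change -0.04, adjusted p = 0.835) and Hnf4a (0.27, adjusted p = 0.295). Hnf4a passed without control replicate 6 (adjusted p = 0.0337).

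Most regulators and granule machinery genes of goblet cells fell. Of 26 such genes tested, 18 were called lower and 0 higher (median log2 fold change -0.74), 18 without deficient replicate 3 and 17 over male-labelled mice without it. Ccn3, a secreted matricellular protein gene, was at 18.6 to 106 CPM in controls (median 47.3) and 1.25 to 2.69 CPM in deficient mice (median 1.72), a log2 fold change of -4.93 (SE 0.34, adjusted p = 3.03e-07). Nxpe2 ranged from 1.87 to 25.2 CPM (median 14.4) and from 0.298 to 1.07 CPM (median 0.670), a log2 fold change of -4.45 (SE 0.43). Capn8, a calpain gene of mucous cells, was at 3.23 to 5.91 CPM in controls (median 4.31) and 0.546 to 1.01 CPM in deficient mice (median 0.668), a log2 fold change of -2.59 (SE 0.19). No library of one group reached the other in these 3 genes, and control replicate 6 was the lowest control in each. The transcription factor Gfi1, which keeps secretory precursors from the endocrine fate, fell by 1.30 (SE 0.15), and Bcas1 by 1.43 (SE 0.17). Spdef and Atoh1, the goblet maturation factor and the master factor of secretory fate, were chosen for naming after their values were seen. Spdef was at 82.7 to 141 CPM in controls (median 103) and 40.3 to 71.9 CPM in deficient mice (median 60.9), a log2 fold change of -0.93 (SE 0.13, adjusted p = 1.85e-04). Atoh1 fell by 0.97 (SE 0.14), from 58.8 to 97.9 CPM to 27.5 to 49.3 CPM.

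The secreted products of goblet cells formed a separate list. Of 17 goblet cell secreted products, 5 were called lower and 1 higher (median -0.36), and 9 were lower over male-labelled mice without deficient replicate 3. Muc2, the gel-forming mucin of colonic mucus, was at 1636 to 3433 CPM in controls (median 2965) and 797 to 1295 CPM in deficient mice (median 886), a log2 fold change of -1.49 (SE 0.17, adjusted p = 2.17e-05). Every control was above every deficient library. Sycn, a granule membrane protein gene, was at 0.827 to 11.9 CPM in controls (median 6.10) and 0.0468 to 0.370 CPM in deficient mice, a log2 fold change of -5.08 (SE 0.51). Agr2, the disulphide isomerase that folds mucins, fell by 0.73 (SE 0.15), Wfdc2 by 0.71 and Tpsg1 by 0.54. The member that rose was Ang4, described above. Of 28 unfolded protein response and folding genes, 2 were called lower (Herpud1 and Asns, by 0.34 and 0.54) and 1 higher (Atf3, by 0.61). This was close to the 11.7% called over all genes tested.

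Among genes of enzymes that build mucin O-glycans, more were called lower than higher at each of the 4 steps examined, and members called higher were found at 3 of them. Of 14 Galnt genes, which attach the first sugar, 6 were called lower and 1 higher (median log2 fold change -0.15). The counts were 6 and 1 without deficient replicate 3, and 5 and 1 over male-labelled mice without it. Galnt4 was at 316 to 369 CPM in controls (median 343) and 147 to 209 CPM in deficient mice (median 169), a log2 fold change of -0.97 (SE 0.08, adjusted p = 1.20e-06). Galnt7 and Galnt10 fell by 0.89 (SE 0.08) and 0.86 (SE 0.09), and Galnt1 rose by 0.38 (SE 0.07), all 4 without overlap. Of 19 core and extension genes, 9 were called lower and 1 higher (median -0.36). Gcnt3, which makes branched core structures, was at 394 to 543 CPM in controls (median 490) and 208 to 274 CPM in deficient mice (median 220), a log2 fold change of -1.06 (SE 0.09, adjusted p = 1.84e-06). Its relative Gcnt4 rose by 1.06 (SE 0.13). B3gnt6, the core 3 synthase gene, was at 3.28 to 36.1 CPM in controls (median 26.5) and 3.01 to 4.74 CPM in deficient mice (median 3.83), a log2 fold change of -2.63 (SE 0.36). A4gnt, which caps glycans with alpha-linked N-acetylglucosamine, fell by 1.98 (SE 0.33). In both B3gnt6 and A4gnt the overlap came from control replicate 6, at 3.28 and 9.77 CPM, while the other controls were at 13.5 CPM or higher in B3gnt6.

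Of 12 fucosylation genes, 5 were called lower (Fut1, Fut2, Fut4, Fut8 and Gmds) and 0 higher (median -0.13). The number lower was 4 without deficient replicate 3 and 4 over male-labelled mice without it. Fut2, the secretor enzyme gene, was at 244 to 392 CPM in controls (median 294) and 107 to 180 CPM in deficient mice (median 132), a log2 fold change of -1.06 (SE 0.13). Gmds, needed to make GDP-fucose, fell by 1.03 (SE 0.13), and Fut4 by 1.06 (SE 0.12). Of 27 sialic acid and sulfate capping genes, 8 were called lower and 2 higher (median -0.10). St6gal1, a sialyltransferase gene, was at 50.9 to 64.2 CPM in controls and 20.96 to 35.55 CPM in deficient mice, a log2 fold change of -1.22 (SE 0.11, adjusted p = 1.49e-06). The members that rose were St3gal6, by 1.38 (SE 0.16), and Gal3st2, a galactose sulfotransferase gene, by 1.46 (SE 0.21).

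**Figure D3:**
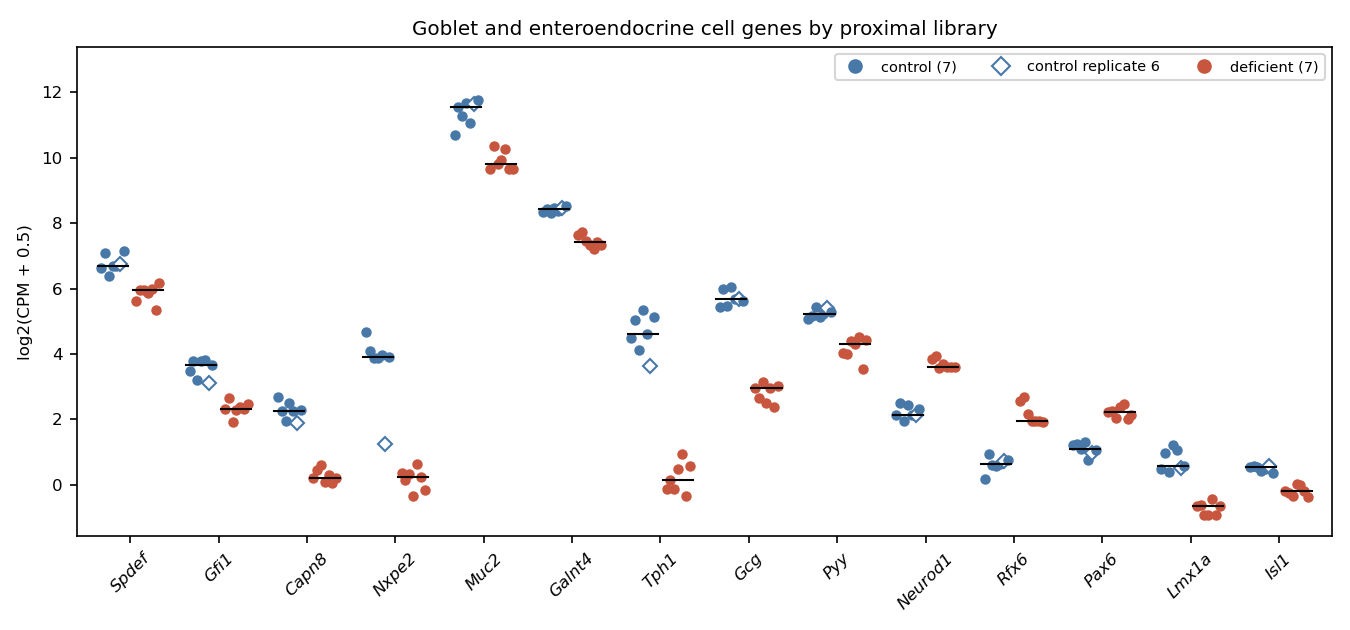
Expression as log2(CPM + 0.5) of goblet cell, glycan and enteroendocrine genes in 7 control (blue, replicate 6 as an open diamond) and 7 deficient (red) proximal libraries, with a black line at each median. Hormone genes and Lmx1a and Isl1 are lower in deficient mice, and Neurod1, Rfx6 and Pax6 are higher, with no overlap in these genes.

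Enteroendocrine hormone genes changed in both directions, and so did the transcription factor genes of that lineage. Of 16 hormone and transmitter genes, 6 were called lower and 3 higher (median log2 fold change -0.42). Without deficient replicate 3, 7 of 17 tested were lower and 2 higher. Over male-labelled mice without it, 8 of 17 were lower and 1 higher, with a median of -1.03. Tph1, the rate-limiting enzyme of gut serotonin synthesis, was at 12.0 to 40.1 CPM in controls (median 24.0) and 0.298 to 1.44 CPM in deficient mice (median 0.612), a log2 fold change of -5.15 (SE 0.36, adjusted p = 3.03e-07). Gcg, which encodes proglucagon, was at 42.4 to 65.8 CPM in controls (median 50.3) and 4.72 to 8.32 CPM in deficient mice (median 7.23), a log2 fold change of -2.98 (SE 0.15, adjusted p = 1.59e-08). Nts, the neurotensin gene, ranged from 43.6 to 75.6 CPM (median 64.3) and from 2.92 to 9.38 CPM (median 4.24), a log2 fold change of -3.59 (SE 0.24). In all 3 genes the groups were far apart, and control replicate 6 was among the other controls in Gcg and Nts and lowest in Tph1. Pyy, of L cells, fell by 1.06 (SE 0.13), and Ghrl and Ppy fell by 1.98 and 0.96. Ghrl was at 0.357 to 0.516 CPM in controls and 0 to 0.237 CPM in deficient mice. Its call was lost with the offset for transcript length (adjusted p = 0.062). Sct, the secretin gene, rose from 22.3 to 42.2 CPM (median 31.7) to 65.8 to 191 CPM (median 134), a log2 fold change of 1.91 (SE 0.24, adjusted p = 5.16e-05). Cck (0.70, adjusted p = 0.0442) and Nmu (1.27, adjusted p = 0.0414) were also higher, but lost the call over male-labelled mice without deficient replicate 3 (adjusted p = 0.221 and 0.290). Cck also lost it with age as a covariate (adjusted p = 0.119), and Nmu with limma-voom (0.119). Leaving out any of most single libraries removed each call as well (adjusted p = 0.0512 to 0.108 for Cck and 0.0556 to 0.0992 for Nmu).

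Of 20 lineage transcription factor genes, 7 were called higher and 4 lower (median 0.14). The counts were 7 and 4 without deficient replicate 3, and 6 and 4 over male-labelled mice without it. Neurod1, which acts in most endocrine precursors, was at 3.34 to 5.11 CPM in controls (median 3.91) and 11.3 to 14.86 CPM in deficient mice (median 11.7), a log2 fold change of 1.56 (SE 0.11, adjusted p = 3.03e-07). Rfx6 was at 0.636 to 1.41 CPM in controls and 3.30 to 5.98 CPM in deficient mice (log2 fold change 1.95, SE 0.20), and Pax6 at 1.19 to 1.99 and 3.57 to 5.05 CPM (1.34, SE 0.14). Neurog3, which starts the endocrine programme, rose by 0.72, from 0.656 to 1.15 CPM to 1.11 to 2.01 CPM. Lmx1b rose by 2.83, from 0 to 0.250 CPM to 0.244 to 1.07 CPM. The groups overlapped in both of these higher members. Those that fell included Lmx1a, a factor of serotonin cells, from 0.815 to 1.82 CPM to 0.0236 to 0.240 CPM (log2 fold change -3.44, SE 0.41), Isl1 (-1.28) and Nkx2-2 (-1.24). Of 28 granule and secretion genes, 6 were called lower and 0 higher. Chga, the chromogranin A gene of the granule core, was at 83.0 to 228 CPM in controls (median 141) and 19.1 to 30.0 CPM in deficient mice (median 20.8), a log2 fold change of -2.67 (SE 0.21, adjusted p = 6.83e-07). Ptprn2 fell by 2.12 (SE 0.16), Slc18a1, the amine carrier of the granule, by 1.60 (SE 0.18), and Pcsk1, whose upstream sequence is printed above, by 1.07 (SE 0.13).

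Among salt and water handling genes, more were called lower than higher in each of 3 lists, while guanylin, calcium and metal handling genes went both ways. Car2, a cytosolic carbonic anhydrase gene, was at 271 to 992 CPM in controls (median 802) and 34.0 to 87.5 CPM in deficient mice (median 69.3), a log2 fold change of -3.43 (SE 0.27, adjusted p = 6.83e-07). Car8 fell by 2.17 (SE 0.17), and Car1 was at 12311 to 21062 CPM in controls and 10052 to 15686 CPM in deficient mice (log2 fold change -0.44, SE 0.13, adjusted p = 0.0401). The Car1 call was lost when any of 8 libraries was left out. Of 19 carbonic anhydrase and aquaporin genes, 5 were called lower and 2 higher (median 0.07), and 3 were lower without deficient replicate 3. Aqp4 fell by 2.62 (SE 0.49), from 9.74 to 46.7 CPM to 0.755 to 10.6 CPM, and Aqp3 rose by 3.33 (SE 0.41), from 0.318 to 1.17 CPM to 2.03 to 12.2 CPM. Of 14 sodium channel and aldosterone-response genes, 6 were called lower and 1 higher (median -0.15). The higher member was Sgk1, by 0.70, a call lost without any of 7 libraries, deficient replicate 3 among them. Scnn1b, a subunit of the epithelial sodium channel, was at 5.25 to 7.02 CPM in controls (median 5.76) and 0.436 to 1.67 CPM in deficient mice (median 1.10), a log2 fold change of -2.55 (SE 0.22). Of 21 chloride, bicarbonate and potassium transport genes, 5 were called lower and 2 higher (median -0.15). Without control replicate 6, 5 were lower and 5 higher. Kcne3, the potassium channel subunit of chloride secretion, fell by 1.52 (SE 0.15), from 56.3 to 123 CPM to 28.0 to 41.5 CPM. Of 24 guanylin, calcium and metal handling genes, 4 were called higher and 3 lower (median 0.05), and 6 and 3 without control replicate 6. Among them, Guca2b, the uroguanylin gene, rose by 1.70 (SE 0.23), and the metallothionein gene Mt1 by 1.81 (SE 0.46, adjusted p = 0.0154). Mt1 was at 651 CPM in control replicate 6 and at most 164 CPM in the other controls, and its call was lost over male-labelled mice without deficient replicate 3 (adjusted p = 0.121).

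Xenobiotic metabolism genes went both ways, with 18 of 56 called lower and 13 higher. The counts were 18 and 12 without deficient replicate 3, and 15 and 11 over male-labelled mice without it. Sult1c2, a sulfotransferase gene, was at 9.42 to 49.8 CPM in controls (median 36.5) and 1.66 to 3.39 CPM in deficient mice (median 2.56), a log2 fold change of -3.88 (SE 0.31, adjusted p = 6.83e-07). Ugt1a6a, a glucuronidation enzyme gene, fell by 1.62 (SE 0.11). Cyp2d10, a cytochrome P450 gene outside the list, fell by 2.70 (SE 0.25). Cyp4f16 rose from 34.3 to 109 CPM (median 49.1) to 236 to 429 CPM (median 340), a log2 fold change of 2.59 (SE 0.24, adjusted p = 2.85e-06). The groups did not overlap in these 4 genes. Of 23 apolipoprotein L and phospholipase genes, 7 were called higher and 2 lower. Pla2g10, a secreted phospholipase gene, fell from 19.1 to 44.1 CPM (median 39.3) to 5.01 to 9.02 CPM (median 6.06), a log2 fold change of -2.52 (SE 0.18), and Pld2 rose by 1.29 (SE 0.12).

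Further genes belonged to the 15 lowest log2 fold changes among genes whose higher group averaged 5 CPM or more. Ak4, a mitochondrial adenylate kinase gene, was at 18.0 to 84.6 CPM in controls (median 56.3) and 2.85 to 4.65 CPM in deficient mice (median 3.44), a log2 fold change of -3.85 (SE 0.30). Slc37a2, a sugar phosphate carrier gene, ranged from 40.5 to 350 CPM (median 280) and from 3.92 to 49.0 CPM (median 16.2), a log2 fold change of -3.58 (SE 0.56), with overlap through control replicate 6. Gna14 and Rgs17, of G protein signalling, fell by 3.61 (SE 0.26) and 3.33 (SE 0.21). Ido1, which degrades tryptophan, fell by 3.40 (SE 0.48), from 3.16 to 30.7 CPM to 0.401 to 2.64 CPM. Bcl2l15 was among the 15 highest, at most 1.07 CPM in controls and 4.40 to 23.3 CPM in deficient mice (log2 fold change 4.27, SE 0.43).

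Of 22 genes of crypt stem cells and Wnt signalling, 8 were called lower and 2 higher (median -0.38). The counts were 8 and 2 without deficient replicate 3, and 7 and 1 over male-labelled mice without it. Ephb3, which sorts cells along the crypt, was at 17.2 to 26.4 CPM in controls (median 22.3) and 7.31 to 14.4 CPM in deficient mice (median 10.6), a log2 fold change of -1.08 (SE 0.14). Rgmb fell by 0.70 (SE 0.08). The members that rose were Olfm4, described above, and Lgr5, the stem cell receptor gene, by 0.85 (SE 0.18, adjusted p = 0.00462). Of 27 cell cycle genes, 2 were called lower (Ccnd1 and Plk1) and 1 higher (Cdc6), close to the 11.7% called over all genes tested. In this list, 0 were called over male-labelled mice without deficient replicate 3. Of 9 Paneth and deep crypt secretory cell genes, 4 were lower (Kit, Mmp7, Nupr1 and Cd24a) and 2 higher (Guca2b and Pnliprp2). Pnliprp2 was at 4.93, 16.9 and 6.77 CPM in deficient replicates 3, 5 and 7 and at 0.513 to 1.90 CPM in the other deficient libraries. Its call was lost over male-labelled mice without deficient replicate 3 (log2 fold change 0.25, adjusted p = 0.792) and with limma-voom (adjusted p = 0.252). Kit, the receptor gene that marks deep crypt secretory cells of the colon and also mast cells, was at 44.9 to 74.7 CPM in controls (median 58.3) and 21.7 to 38.5 CPM in deficient mice (median 25.1), a log2 fold change of -0.99 (SE 0.14, adjusted p = 1.63e-04).

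Tuft cells, the chemosensory cells of the epithelium, gave 12 of 25 genes called higher and 0 lower (median 0.49). The number was 12 without deficient replicate 3 and 4 over male-labelled mice without it. Hpgds, the prostaglandin D synthase gene, was at 6.82 to 10.5 CPM in controls (median 8.73) and 11.8 to 18.9 CPM in deficient mice (median 15.2), a log2 fold change of 0.77 (SE 0.12, adjusted p = 2.75e-04). Sh2d6 and Gnat3 rose by 1.05 (SE 0.18) and 1.25 (SE 0.24), with overlap through control replicate 6. Of 27 junction genes, 2 were called higher (Cldn4, by 1.70, and Cldn23) and 2 lower (Cldn8 and Cldn2), beside 11.7% called over all genes tested. Of 20 antimicrobial genes, 2 were higher (Lcn2, by 2.37, SE 0.30, and Saa3) and 2 lower (Nox1 and Pigr). Saa3 lost the call with limma-voom (adjusted p = 0.0705) and without any of several single libraries (0.0503 to 0.0782). Saa3 and Nox1 both lost it over male-labelled mice without deficient replicate 3 (adjusted p = 0.0692 and 0.0653). Of 25 cytokine and chemokine genes, 5 were higher and 3 lower, and 3 and 1 over male-labelled mice without deficient replicate 3. Ccl25, which draws lymphocytes to the small intestine, was at 7.09 to 17.3 CPM in controls (median 7.64) and 42.5 to 130 CPM in deficient mice (median 60.9), a log2 fold change of 2.92 (SE 0.27, adjusted p = 2.65e-06). Ccl6 fell by 2.00 (SE 0.17). Of 21 injury and repair genes, 5 were higher and 1 lower (Krt7), and 3 and 2 in that fit. Ereg, an epidermal growth factor family gene, rose by 1.69 (SE 0.20), and Il1rl1, whose upstream sequence is printed above, by 1.95 (SE 0.29).

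Mast cell genes were the immune list with most members called, 6 of 9 higher and 1 lower (median 2.58). The counts were 6 and 1 without deficient replicate 3, and 5 and 1 over male-labelled mice without it. Mcpt4, a mast cell protease gene, was at 0 to 0.199 CPM in controls and 0.454 to 2.43 CPM in deficient mice (log2 fold change 4.38, SE 0.55), and Mcpt1 at 0.190 to 1.73 and 3.36 to 7.12 CPM (2.58, SE 0.38), without overlap in either. The lower member was Kit, and the summed level of the list was 47.4 to 78.9 CPM in controls and 35.6 to 57.4 CPM in deficient mice. Kit alone was at 44.9 to 74.7 CPM in controls and 21.7 to 38.5 CPM in deficient mice. The sum was thus in large part Kit, which also marks deep crypt secretory cells. The other immune lists had 2 calls or fewer each, beside 11.7% called over all genes tested. Of 18 macrophage genes 2 were higher (Itgam and Mertk). Of 5 neutrophil genes 2 were higher (Ly6g and Lcn2, which is also in the antimicrobial list). Of 23 T and NK cell genes 2 were lower (Lck and Il2rb). Higher were 1 of 19 B and plasma cell genes (Prdm1) and 1 of 26 MHC class II and interferon genes (Ifit3). Itgam and Ly6g lost the call without any of several single libraries (adjusted p = 0.0514 to 0.0802 and 0.0523 to 0.0644). Without deficient replicate 3 the macrophage, neutrophil and T and NK cell counts were 1 each. Of the MHC class II and interferon genes, 4 were higher over male-labelled mice without it and 5 with DESeq2. An unadjusted p under 0.05 was found for 9 of the 19 B and plasma cell genes and 8 of the 26 MHC class II and interferon genes. B cell genes were high in control replicates 5 and 7, where Ms4a1 was at 24.7 and 32.5 CPM, against 2.13 to 7.07 CPM in the other controls. Of 15 smooth muscle, 19 neuron and glia and 13 endothelial genes, 0 were called by the edgeR test, 0, 2 and 2 had an unadjusted p under 0.05, and DESeq2 called 0, 1 and 1. Of 17 fibroblast genes, 4 were higher (Pdgfra, Pdgfrb, Grem1 and Wnt5a). With age as a covariate the first 3 lost the call (adjusted p = 0.0712, 0.0798 and 0.0946) and 1 was higher, and over male-labelled mice without deficient replicate 3, 2 were higher. Of 24 anterior and middle Hox genes 1 was called (Hoxd4, lower), a call lost without deficient replicate 3. Of 6 posterior Hox genes 0 were called by edgeR or DESeq2, and 0 had an unadjusted p under 0.05.

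Control replicate 6, whose label gives Cre with both Foxa1 alleles floxed and 1 wild-type Foxa2 allele, lay between the groups. Each library was placed on a scale where 0% is the mean of the other controls and 100% the mean of the other deficient libraries, on log2(CPM + 0.5), over the genes called at least 2-fold in the fit that left that library out. Control replicate 6 had a median position of 38.9% over 651 genes (quartiles 10.7% and 65.7%), and the other controls were between -7.53% and 4.03%. Control replicate 1, which carried Cre with 1 floxed allele of each gene, was at -2.01%, and replicates 5 and 7, also 18 months old, were at -7.53% and -6.17%. The position of control replicate 6 was 36.4% over higher genes and 41.4% over lower genes. It lay inside the range of the deficient libraries for 186 of the 651 genes (28.6%), while each other control did so for 8.35% to 13.2% of its genes. It is 1 mouse, so no spread can be given for its genotype.

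The position of control replicate 6 differed among gene lists. The median over called members was 80.4% for 6 O-glycan core and extension genes, 63.3% for 5 bile acid genes, 53.6% for 10 brush border genes and 34.1% for 7 amino acid transporter genes. It was 27.7% for 8 goblet regulators, 20.5% for 8 fatty acid oxidation genes, 18.0% for 11 lipid genes, 19.1% for 8 hormone genes and 1.30% for 9 endocrine transcription factor genes. The highest of the other controls was at 1.29%, 19.0%, -1.50% and 0.274% for the O-glycan, bile acid, brush border and amino acid transporter lists. That value was 19.2% for goblet, 43.2% for fatty acid oxidation, 10.9% for lipid, 11.4% for hormone and 15.5% for endocrine transcription factor genes. For fatty acid oxidation and endocrine transcription factor genes, control replicate 6 was thus within the range of the other controls. In control replicate 6, B3gnt6 (3.28 CPM) was at the deficient level and Neurod1 (3.90 CPM) at the control level. This library also had the highest summed pan-epithelial level of the controls (22424 CPM) and the highest level of the fat cell gene Adipoq, at 47.8 CPM against 7.20 to 25.8 CPM in the other controls, and the lowest of the plasma cell gene Jchain, at 527 CPM. Its summed level was the lowest of the controls for macrophage (232.9 CPM against 373 to 608 CPM), B and plasma cell (1209 against 1495 to 2187 CPM), fibroblast (621.7 against 638 to 1045 CPM), endothelial (101.2 against 108 to 169 CPM), neuron and glia (95.0 against 106 to 167 CPM) and mast cell genes (47.4 against 49.8 to 78.9 CPM). Of the mast cell sum in this library, 44.9 CPM was Kit. The library lay among the other controls for smooth muscle, neutrophil and T and NK cell genes. The part of these levels in the position was not tested. Of the deficient libraries, replicate 2 was lowest at 76.3% and the others were between 95.0% and 109%. Deficient replicate 2 was at 26.2% over lipid genes, 48.5% over fatty acid oxidation genes and 102% over hormone genes.

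**Figure D4:**
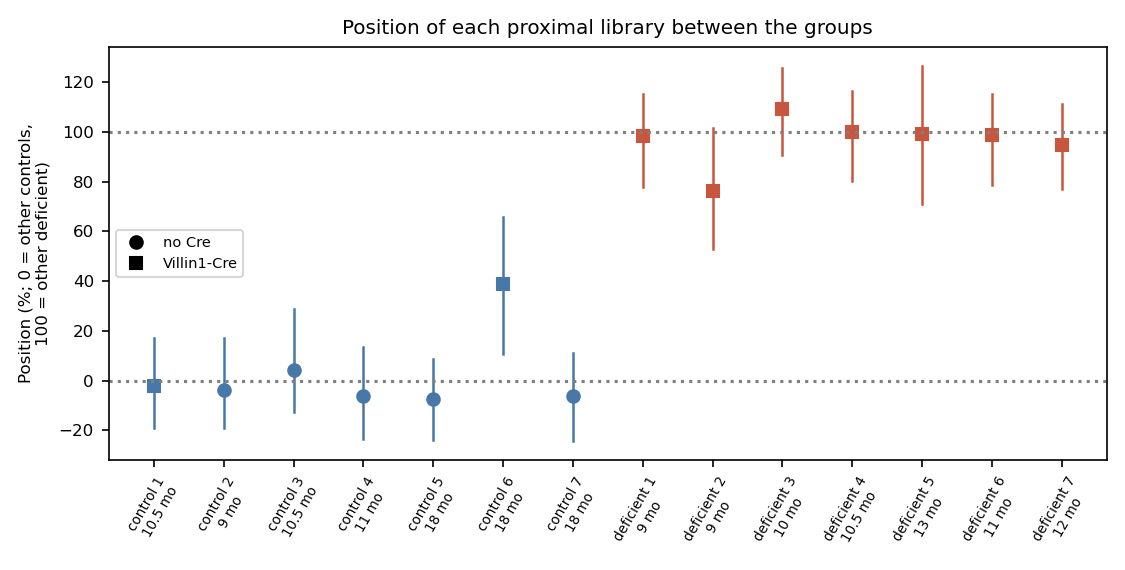
Median position (symbol) and quartiles (line) of each proximal library on a scale from the mean of the other controls (0%) to the mean of the other deficient libraries (100%), with replicate number and age in months on the horizontal axis. Control replicate 6 is at 38.9%, the other controls are near 0%, and deficient replicate 2 is at 76.3%.

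The genotype effect in proximal colon was set against that in distal colon of the same mice, as the difference between the effects over 26 libraries of 13 mice. Of 17595 genes, 178 were called (1.01%), 102 with a more positive effect in proximal colon (0.58%) and 76 with a more negative one (0.432%). Without deficient replicate 3 the counts were 66 and 44, and without control replicate 2 they were 66 and 36. Without control replicate 4 or 5, 45 and 47 genes had the more negative effect. Foxa2, itself a targeted gene, had a difference of 1.93 (log2), its fall being larger in distal than in proximal colon. Anpep had a difference of 4.15 (log2, SE 0.39, adjusted p = 2.89e-04), its distal level being 4.63 to 8.24 CPM in controls and 7.06 to 19.8 CPM in deficient mice. Npc1l1 differed by 4.13 (SE 0.64), with distal medians of 0.159 CPM in controls and 0.177 CPM in deficient mice. Ccl25 (1.70), Fmo4 (2.23) and Chp2 (1.41) also had the more positive effect in proximal colon. Slc15a1 differed by 3.13 (SE 0.46), with distal levels of 69.4 to 278 CPM in controls and 128 to 232 CPM in deficient mice.

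Other genes had the more negative effect in proximal colon. Car2 differed by -1.92 (SE 0.28), Gcg by -1.55 (SE 0.24), Pyy by -1.49 (SE 0.26) and Chga by -1.91 (SE 0.29). Pyy had distal medians of 76.8 CPM in controls and 96.3 CPM in deficient mice, against 36.7 and 19.5 CPM in proximal colon. Rbp4 (-2.51), Map2 (-1.72) and Fzd7 (-1.45) differed through distal levels, which were higher in deficient mice without overlap, while in proximal colon Rbp4 and Fzd7 were not called (adjusted p = 0.213 and 0.637). Rbp4 passed over male-labelled mice without deficient replicate 3 (log2 fold change -0.75, adjusted p = 0.00879). Map2 passed narrowly in proximal colon (0.41, adjusted p = 0.0483) and lost the call without deficient replicate 3 (adjusted p = 0.103). Car1 and Hhip had the reverse pattern, with distal levels lower in deficient mice and differences of 3.10 (SE 0.40) and 2.70 (SE 0.37). The length deducted per transcript in the deposited quantification was 249 bases in every distal library and 214.56 to 245.61 bases in proximal libraries. With an offset for it, 92 and 68 genes were called.

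**Figure D5:**
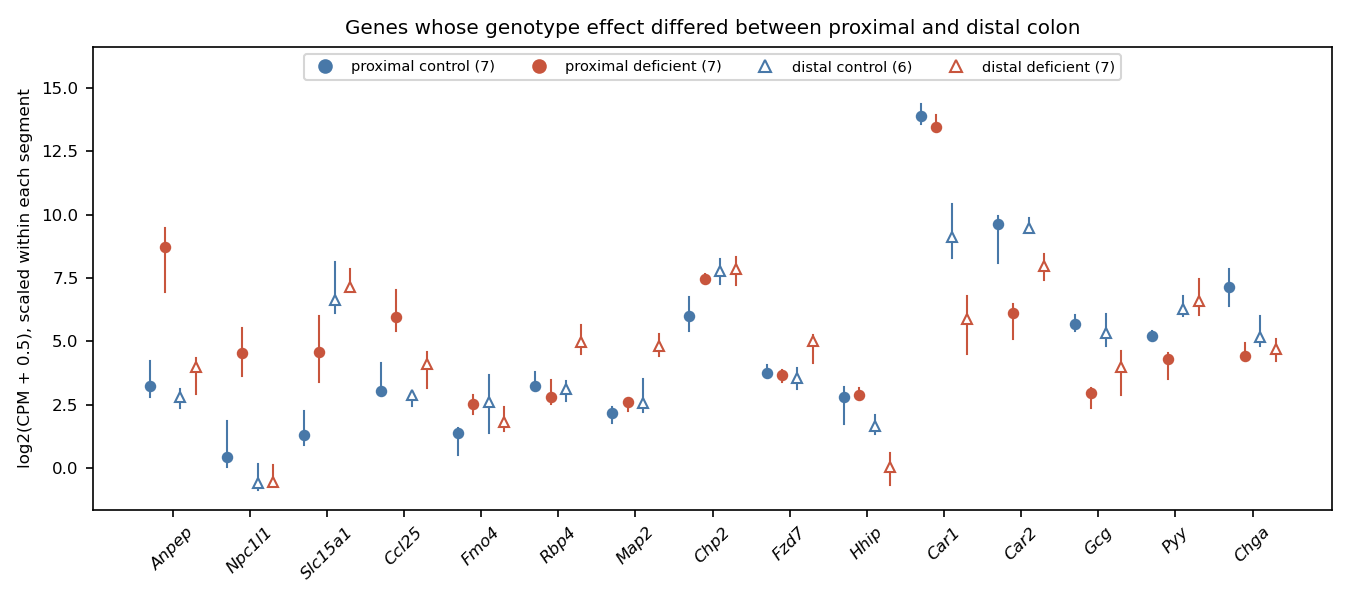
Median (symbol) and range (line) of log2(CPM + 0.5) in proximal (circles) and distal (open triangles) colon of control (blue) and deficient (red) mice for 15 genes whose genotype effect differed between segments. Levels were scaled within each segment, so the genotype change is to be compared and not the height between segments. Anpep, Npc1l1 and Slc15a1 rise in proximal colon, and Rbp4, Map2 and Fzd7 are higher in deficient mice in distal colon.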

How the data were processed

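Per the submitters' processing notes, bcl2fastq 2.20.0.422, cutadapt 2.5, kallisto 0.46.2 and edgeR were used with GRCm38. The authors deposited estimated counts and TPM per transcript for each library, and a log2 CPM matrix. The deposited TPM were not used, and the deposited log2 matrix served 1 alternative. Poly(A) libraries were made with NEBNext Ultra, per the labels' protocols.

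Estimated counts were summed per gene and rounded, and 0.971% to 1.27% of counts in proximal libraries matched no gene and were left out. Proximal libraries were fitted in R 4.3.3 with edgeR 4.0.16 (TMM scaling, filterByExpr, quasi-likelihood test, Benjamini-Hochberg adjustment over all genes tested), deficient against control, 7 against 7, without covariates. The segment difference was an interaction term with each mouse as a block, over the 26 libraries from 13 mice. CPM were scaled within each segment. Alternatives used DESeq2 1.42.0, limma 3.58.1 and other scalings, filters, covariates and samples. The fits over male-labelled mice without deficient replicate 3 and on the authors' matrix were chosen after seeing the data. Scripts were tested on simulated data.

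Members and gene lists were chosen with earlier results of these data known. Genes were named by rule: the Foxa genes, the 15 strongest called changes in each direction among genes whose higher group averaged 5 CPM or more (leaving out unnamed, immunoglobulin, pseudogene and sex-linked entries), up to 5 called members of smallest p per list, and 10 genes for the segment difference. Members that a count of 5 or fewer needed are named too. Clps, Acads, Gata4, Spdef, Atoh1, Gal3st2, Cck, Nmu, Lgr5, Slc36a1, Slc1a5, Slc43a1, Pck2, Tpsg1, Ehf, Nkx2-2, Lmx1b, Neurog3, Ghrl, Ppy, Sgk1, Stra6 and Pnliprp2 were chosen after their values were seen. Results on some genes are not reported here. The labels do not give littermates or batches.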

Additional observations from a re-analysis of the deposited data

Results flagged for a closer look

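In 43 of 346 groups of 7 libraries (2 groups for each of 173 genes named), 1 library stood apart from the others by Dixon's criterion. Chance meets it in about 1 of 20 groups of independent, normally distributed values. It was applied to CPM without logarithm and to genes mostly chosen by their results, so that rate need not hold here. Control replicate 6 was that library in 24 of them. Values here are CPM in the library named. Control replicate 6 stood apart in Foxa1 (14.97), Anpep (18.1), Enpep (98.4), Dpp4 (50.9), Slc6a19 (5.10), Slc15a1 (4.24), Slc6a20a (4.03), Npc1l1 (3.07) and Mttp (12.3). It also stood apart in Tm6sf2 (14.8), Fabp6 (19.3), Slc10a2 (526), Maf (83.7), Hnf4a (1367), Gcnt4 (29.1), Guca2b (46.0) and Mt1 (651), and in Cyp4f16 (109), Pla2g10 (19.1), Ccl25 (17.3), Fzd7 (16.3), Chp2 (108), Krt7 (228) and Ly6g (1.87). Control replicate 2 stood apart in Foxa3 (49.4), Apoa4 (1.57) and Mcpt4 (0.199). Control replicate 3 stood apart in Gpbar1 (0.331) and Slco2a1 (133). Control replicate 4 stood apart in Agr2 (1607), Cldn4 (88.0) and Asns (61.2). Control replicate 7 stood apart in Ang4 (40.0). Deficient replicate 2 stood apart in St6gal1 (35.6). Deficient replicate 3 stood apart in Clps (0.778), Olfm4 (28.0) and Sgk1 (469). Deficient replicate 5 stood apart in Fabp6 (604), Chga (30.0), Pla2g4c (446), Ccl25 (130), Fabp1 (51.1) and Pnliprp2 (16.9). The part of genotype, age and tissue makeup in the levels of control replicate 6 was not tested, since it is 1 mouse.

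The effect of genotype differed between proximal and distal colon for 29 genes named, by the interaction term of the edgeR quasi-likelihood fit with Benjamini-Hochberg adjustment. As the proximal minus the distal log2 fold change, the more positive differences were Foxa2 (1.93), Anpep (4.15), Slc15a1 (3.13), Slc6a20a (1.40), Npc1l1 (4.13), Dgat1 (0.96), St3gal6 (0.96), Ugt1a6a (1.35), Cyp4f16 (1.33), Ccl25 (1.70), Fmo4 (2.23), Car1 (3.10), Hhip (2.70) and Chp2 (1.41). The more negative differences were Gcg (-1.55), Pyy (-1.49), Cck (-2.60), Chga (-1.91), Car2 (-1.92), Pld2 (-1.34), Ccl6 (-1.69), Rbp4 (-2.51), Map2 (-1.72), Fzd7 (-1.45), Nkx2-2 (-1.97), Cldn2 (-1.54), Mmp7 (-4.79), Nupr1 (-1.45) and Hoxd4 (-1.99). The differences of Mmp7 and Cck are at low levels, with distal medians of 0.293 CPM in control and 2.52 CPM in deficient mice for Mmp7, a matrix protease gene of Paneth cells. Cck, the cholecystokinin gene, had distal medians of 2.84 CPM in control and 20.9 CPM in deficient mice.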

How the results depend on the processing

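Under DESeq2, limma-voom, other scaling (DESeq2 size factors, upper quartile), other filters, an offset for transcript length, age as a covariate and the sample subsets, genes called higher in proximal colon numbered 693 to 1117 and genes called lower 726 to 1351. With 1 library left out in turn, the totals were 1627 to 2255 called, 734 to 1120 higher and 893 to 1168 lower. Replicate numbers shared by control and deficient mice belong to different mice, and same-numbered libraries deviated with correlations of -0.16 to 0.27, with 1 of 7 matching its own number best. With the number as a replicate block, 798 genes were higher and 898 lower.

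Leaving out 1 mouse in turn gave 102 to 225 genes for the difference between segments, 66 to 118 more positive and 36 to 107 more negative in proximal colon. Over male-labelled mice 49 were more negative. Fatty acid oxidation genes called higher numbered 12 over mice of 9 to 13 months. Those 2 alternatives use fewer samples. Of 2368 values of 171 named genes under the alternatives other than leaving out 1 library, 2211 kept direction and side of the threshold, 155 lost the call, 2 gained it and 0 changed sign. Of 2394 values with 1 library left out, 2248 kept both, 144 lost the call and 2 gained it. Depth limits the precision of genes at few counts, and sex and age are unevenly spread over the groups.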
